A study of Mus musculus with 2 samples.

Results

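The 10 genes described here encode transcription factors that set mesenchymal identity or drive epithelial-to-mesenchymal transition (EMT): Twist1, Twist2, Snai1, Snai2, Zeb1, Zeb2, Prrx1, Prrx2, Tcf21 and Foxd1. They were chosen by name and make up 10 of the 25430 gene names in the deposited table, and each had a single row. RNA was sequenced from primary mouse embryonic fibroblasts, connective tissue cells grown from E13.5 embryos (days after conception) of Sptbn1 heterozygous parents and kept in medium with fetal bovine serum. The first library carried the genotype label Sptbn1 knockout, which the series' title gives as homozygous, and the second was labelled wild type. Sptbn1 encodes beta-2 spectrin, a membrane skeleton protein known as a binding partner of SMAD3 and SMAD4 in the TGF-β pathway. With 1 library per genotype every difference below is a difference between 2 libraries, without a replicate check, SD or test.

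EMT is the programme by which epithelial cells lose junctions and polarity and become motile. SNAI and ZEB proteins are zinc finger repressors that bind E-boxes with the core CAGGTG, among them those of the E-cadherin gene Cdh1. TWIST proteins and TCF21 are basic helix-loop-helix factors that bind DNA as dimers, often with E proteins. PRRX1 and PRRX2 are paired-related homeodomain proteins of limb and craniofacial mesenchyme, and FOXD1 is a forkhead protein best known from the stroma of the developing kidney. TGF-β is a known inducer of several of these genes, and SMAD proteins act downstream of it.

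The windows of 300 bases around the transcription start (250 before and 50 after) are shown for 5 members, the 3 with the lowest knockout over wild-type ratio, the measured member with the highest, and Snai1, the member whose window holds a CAGGTG E-box. They come from RefSeq on GRCm38.p6, another build than that of the reads. Windows of 8 of the 10 members were scanned, with 4 windows for Zeb2. No window of Snai2 or Zeb1 was scanned, so their motifs are not known here. Capitals mark matches on either strand to CAGGTG, the SNAI and ZEB core, to CAGATG and CATATG, E-boxes of the TWIST type, to the SMAD-binding letters CAGAC and to TATAAA.
Twist1, chr12:33957421-33957720, plus strand: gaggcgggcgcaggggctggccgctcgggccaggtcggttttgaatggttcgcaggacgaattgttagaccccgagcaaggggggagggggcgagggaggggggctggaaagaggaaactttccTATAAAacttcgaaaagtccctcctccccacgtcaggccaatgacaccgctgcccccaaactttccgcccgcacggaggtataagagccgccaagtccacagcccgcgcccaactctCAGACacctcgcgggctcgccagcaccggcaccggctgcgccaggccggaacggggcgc
Twist2, chr1:91801211-91801510, plus strand: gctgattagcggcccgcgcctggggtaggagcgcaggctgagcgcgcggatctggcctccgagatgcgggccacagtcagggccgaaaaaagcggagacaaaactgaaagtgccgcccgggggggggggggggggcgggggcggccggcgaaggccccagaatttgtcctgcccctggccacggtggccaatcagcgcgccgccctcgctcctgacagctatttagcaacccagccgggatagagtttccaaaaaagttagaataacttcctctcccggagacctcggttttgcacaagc
Tcf21, chr10:22820094-22820393, minus strand: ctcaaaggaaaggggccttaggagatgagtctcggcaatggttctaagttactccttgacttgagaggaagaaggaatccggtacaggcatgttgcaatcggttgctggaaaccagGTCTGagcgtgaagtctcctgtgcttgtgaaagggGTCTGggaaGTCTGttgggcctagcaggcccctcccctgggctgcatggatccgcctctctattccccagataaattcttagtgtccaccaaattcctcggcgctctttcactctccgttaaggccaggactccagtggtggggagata
Prrx2, chr2:30845117-30845416, plus strand: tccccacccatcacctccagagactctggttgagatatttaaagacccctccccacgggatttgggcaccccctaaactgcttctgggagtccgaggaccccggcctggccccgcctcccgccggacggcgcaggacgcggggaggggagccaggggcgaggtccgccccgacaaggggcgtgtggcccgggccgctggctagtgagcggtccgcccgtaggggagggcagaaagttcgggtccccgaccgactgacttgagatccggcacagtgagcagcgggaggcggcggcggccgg
Snai1, chr2:167537945-167538244, plus strand: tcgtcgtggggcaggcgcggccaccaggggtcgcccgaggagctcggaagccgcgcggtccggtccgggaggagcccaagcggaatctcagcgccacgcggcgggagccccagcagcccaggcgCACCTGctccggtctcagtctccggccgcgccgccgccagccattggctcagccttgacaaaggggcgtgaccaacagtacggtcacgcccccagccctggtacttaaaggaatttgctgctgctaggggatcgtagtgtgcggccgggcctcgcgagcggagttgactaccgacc
Of the 8 members with a window, Snai1 held CAGGTG, read as CACCTG at position -126 from the start site. The motif was present in 20.2% of 32851 RefSeq windows of the same length. CAGATG, held by 17.2% of all windows, and CATATG, held by 3.91%, were not in the windows of the 8 members. CAGAC, which is in 49.6% of all windows, occurred 3 times in the Tcf21 window, at positions -134, -99 and -90, and 1 time in the Twist1 window at -9. The Prrx1 window held it 2 times and the Foxd1 window 1 time. The Twist2 and Prrx2 windows held none of the 5 motifs, and Twist1 alone held TATAAA, at -126 (13.6% of all windows). The motifs did not overlap each other in these windows. A match describes letters and not binding.

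Values are FPKM (fragments per kilobase of transcript, normalised to library depth), which are scaled to transcript length, so levels of different genes can be set side by side. A gene with a mean of 1 FPKM or more over the 2 libraries is called measured, which held for 11070 genes and for 9 of the 10 members, all but Foxd1. The authors deposited no fragment counts in this table, but low FPKM values fall on steps of 1 fragment. From genes with 1 annotated transcript the step was 0.0610 FPKM times kilobases for the knockout library, against 0.0374 for the wild-type library, and the next step lay at 1.98 and 1.99 times these. This puts the scale at about 16400000 fragments for the knockout library, against 26700000 for the wild-type library. Fragment numbers per gene below are estimates from these steps and annotated transcript lengths, and the standard errors (SE) taken from them cover counting error only, not the spread between cultures, and refer to log2 ratios with nothing added.

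Both libraries carried the fibroblast programme that the label states. All 14 fibroblast defining genes were measured, among them the collagen gene Col1a1 (939 FPKM in knockout and 957 FPKM in wild-type fibroblasts). With 1 FPKM added, 2 of the 14 had a log2 ratio above 0 and 12 below. That is 85.7% below, against 63.1% of measured genes, and the median was -0.09. By 1.2-fold or more 3 were lower in the knockout library (21.4%, against 10.6% of measured genes) and 0 were higher. The largest difference was that of Dcn, at 239 FPKM in knockout and 300 FPKM in wild-type fibroblasts (-0.33). The targeted gene, Sptbn1, was at 36.6 FPKM in the library labelled knockout and 69.6 FPKM in the library labelled wild type, 52.5% of the wild-type level and a log2 ratio of -0.91. When both columns were scaled to a common FPKM sum the ratio was -0.45, which is -0.80 relative to the median measured gene on that scale. The Sptbn1 transcript was thus lower but far from absent, which goes against a full loss of the RNA. The labels do not say which part of the gene was altered, so the value does not check a homozygous knockout, and "knockout" below means the library labelled so. The FPKM column taken as wild type has both a wild-type and a -/- mark in its header, and every direction rests on that reading. The deposited scale is also not unique. The median measured gene had a log2 ratio of -0.05 on it and 0.34 when both columns were scaled to a common sum, a shift of 0.39, so each ratio is read beside the median gene.

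The most abundant member was Prrx1, a homeobox gene of mesenchymal progenitors. It was at 94.0 FPKM in knockout and 99.1 FPKM in wild-type fibroblasts, 48.6% of the summed FPKM of the 10 members in knockout fibroblasts and 49.5% in wild-type ones. Its level exceeded that of 98% of measured genes in both libraries (percentiles 98.2 and 98.2), and it was the highest of 72 transcription factor genes, the 10 members and 62 other factors of mesenchymal lineages. The next of the 72 by mean level was Runx1, a factor of blood and skeletal lineages, at 25.7 FPKM in knockout and 27.4 FPKM in wild-type fibroblasts. Snai2, Zeb2, Zeb1, Snai1, Prrx2, Twist1 and Twist2 followed Prrx1 at between 7.27 and 20.9 FPKM, and ranked between 5 and 17 of the 72 by mean level. Tcf21 ranked 40 and Foxd1 55.

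**Figure D1:**
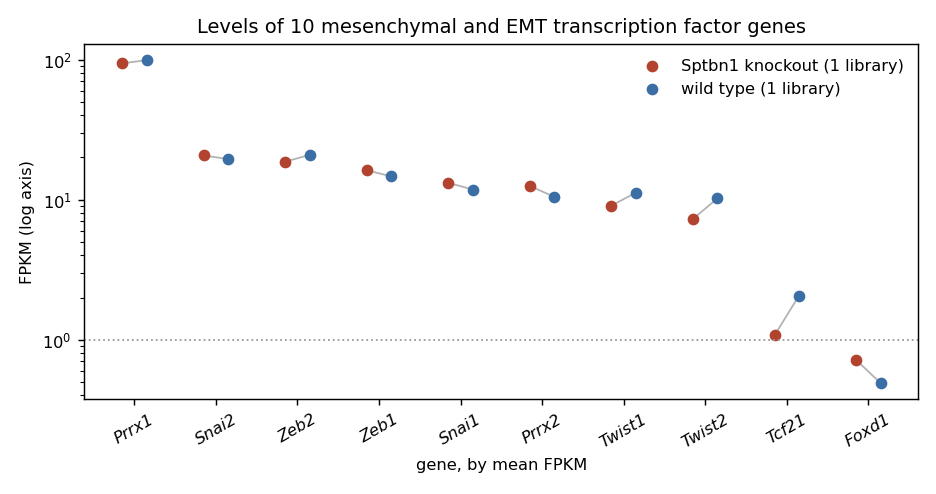
FPKM on a log axis of each of the 10 genes in the Sptbn1 knockout library (left point of each pair) and the wild-type library (right point), ordered by mean level, with a dotted line at 1 FPKM. Prrx1 stands apart at 94.0 and 99.1 FPKM, 7 genes lie between 7.27 and 20.9 FPKM, and Tcf21 and Foxd1 lie near the line.

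The order of the members was nearly shared by the libraries. In the knockout library it ran Prrx1, Snai2, Zeb2, Zeb1, Snai1, Prrx2, Twist1, Twist2, Tcf21 and Foxd1. In the wild-type library Zeb2 stood above Snai2 and Twist1 above Prrx2. Several neighbours were not separable by counting error. In the knockout library Snai1 and Prrx2 differed by 0.07 on the log2 scale (SE 0.11) and Tcf21 and Foxd1 by 0.58 (SE 0.41). In the wild-type library Snai1, Twist1, Prrx2 and Twist2 formed a run in which neighbours differed by 0.07 (SE 0.09), 0.10 (SE 0.10) and 0.03 (SE 0.10). Zeb2 and Snai2 differed there by 0.101 (SE 0.054), which is under 2 SE.

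As a group the 10 genes had near-equal summed levels, at 193 FPKM in knockout and 200 FPKM in wild-type fibroblasts, a log2 ratio of the sums of -0.05, equal to that of the median measured gene to 2 decimals. Differences below are log2((knockout FPKM + 1)/(wild-type FPKM + 1)) unless stated, a scale that understates the change of low genes. Of the 9 measured members 4 were above 0 and 5 below, against 36.9% and 63.1% of all measured genes, and the median was -0.08. The members spread from -0.56 to 0.24. By 1.2-fold or more, 0 of 9 were higher in the knockout library, against 5.54% of measured genes, and 3 of 9 were lower, against 10.6%. The lower ones were Twist1, Twist2 and Tcf21. Both counts depend on the scale. Relative to the median gene Prrx2 was higher by 1.2-fold or more (0.29), against 7.8% of measured genes, and Twist1 at -0.23 no longer passed, which left Twist2 and Tcf21 lower, against 7.06%. On a common FPKM sum 6 members were higher, the SNAI, ZEB and PRRX genes, and Tcf21 alone was lower. The median measured gene was itself at 0.34 there, past 1.2-fold, so most measured genes also counted as higher. On that scale 94.6% of measured genes were above 0 and 5.45% below. On the deposited scale with 1 FPKM added none of the 9 reached 1.5-fold in either direction, which 1.04% of measured genes did upwards and 1.23% downwards. With 0.1 FPKM or nothing added Tcf21 was lower by 1.5-fold or more, at -0.88 and -0.94, as were 2.51% and 2.74% of measured genes. On a common FPKM sum Snai1 and Prrx2 were higher by 1.5-fold or more. Relative to the median gene there they were at 0.25 and 0.33, inside 1.5-fold. The share of measured genes past 1.5-fold was not taken on that scale.

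**Figure D2:**
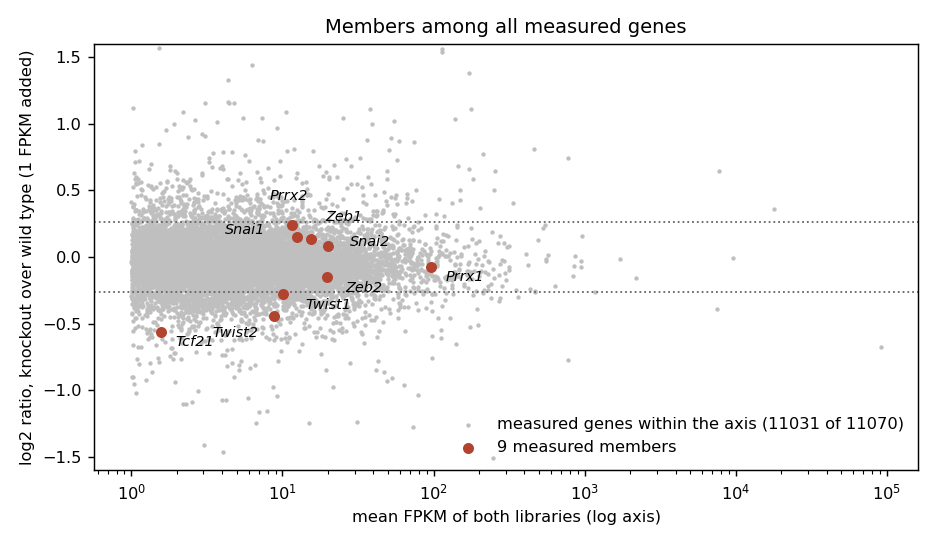
Log2 ratio of knockout over wild type (1 FPKM added) against mean FPKM on a log axis for measured genes (grey; 11031 of 11070 lie within the axis) and the 9 measured members (red), with dotted lines at 1.2-fold. Tcf21, Twist2 and Twist1 lie below the lower line at -0.56, -0.44 and -0.28, and Prrx2 is the highest member at 0.24, inside the upper line.

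The Twist paralogues, which specify mesoderm and cranial mesenchyme (Twist1) and dermis (Twist2), were both lower in the knockout library on the deposited scale, whereas on a common FPKM sum Twist1 turned to 0.15 and Twist2 stood at -0.022, both below the median gene at 0.34. Twist1 was at 9.07 FPKM in knockout and 11.2 FPKM in wild-type fibroblasts, a log2 ratio of -0.28 and 80.8% of the wild-type level, within 1.2-fold once the median gene is set to 0. Twist2 was at 7.27 FPKM in knockout and 10.2 FPKM in wild-type fibroblasts, a log2 ratio of -0.44 and 71.2% of the wild-type level. The estimated fragments were 242 for Twist1 in knockout and 489 in wild-type fibroblasts, and 159 and 363 for Twist2. The counting SE of the log2 ratio was thus 0.11 for Twist1 and 0.14 for Twist2. At a mean of 5 to 20 FPKM, the band of both genes, 8.71% of genes were lower by 1.2-fold or more and 0.942% by 1.5-fold or more. The authors' deposited table gave Twist1 a p-value of 0.246625 and Twist2 one of 0.074913.

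Tcf21, which encodes a factor of epicardial, lung and kidney mesenchyme, had the lowest ratio of the members. It was at 1.07 FPKM in knockout and 2.06 FPKM in wild-type fibroblasts, 52.0% of the wild-type level, with a log2 ratio of -0.56 with 1 FPKM added and -0.94 with nothing added. It rested on few fragments, an estimated 22 in knockout and 70 in wild-type fibroblasts, which gives a counting SE of 0.35 on the log2 ratio with nothing added. It was below the median gene also on a common FPKM sum, at -0.30. Among genes with a mean of 1 to 5 FPKM, 11.8% were lower by 1.2-fold or more and 1.13% by 1.5-fold or more, and Tcf21 lay just inside 1.5-fold with 1 FPKM added. The p-value in the authors' deposited table was 0.0500758.

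Foxd1, the stromal forkhead gene, lay on the other side. It was at 0.718 FPKM in knockout and 0.490 FPKM in wild-type fibroblasts, about 29 and 32 fragments by the estimate, so its ratio is poorly determined. Its log2 ratio was 0.21 with 1 FPKM added and 0.55 with nothing added (counting SE 0.37). The p-value in the authors' deposited table was 0.270023.

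The SNAI zinc finger genes were slightly higher in the knockout library. Snai1, a repressor of epithelial genes, was at 13.2 FPKM in knockout and 11.8 FPKM in wild-type fibroblasts, a log2 ratio of 0.15 (351 and 512 estimated fragments, counting SE 0.10). Snai2, also called Slug, which acts in neural crest and mesoderm, was at 20.7 FPKM in knockout and 19.5 FPKM in wild-type fibroblasts, a log2 ratio of 0.08 (685 and 1053 estimated fragments, counting SE 0.07). On the deposited scale with nothing added, neither stood beyond 2 counting SE from 0, but both stood just beyond 2 counting SE from the median gene, Snai1 by 0.22 and Snai2 by 0.15. Both were above the median gene on the deposited scale and on a common FPKM sum, where Snai1 was at 0.59 and Snai2 at 0.53. The authors' deposited table gave Snai1 a p-value of 0.047326, the 1 member of 10 below 0.05, and Snai2 one of 0.63815. It put 5.60% of measured genes below 0.05. The third family gene, Snai3, was listed at 0 in both libraries.

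The ZEB genes went opposite ways by small amounts on the deposited scale. Zeb1 was at 16.2 FPKM in knockout and 14.7 FPKM in wild-type fibroblasts, a log2 ratio of 0.14 (counting SE 0.05). Zeb2 was at 18.7 FPKM in knockout and 20.9 FPKM in wild-type fibroblasts, a log2 ratio of -0.15 (counting SE 0.05), which turned to 0.29 on a common FPKM sum, just below the median gene there. Zeb2 is also expressed by macrophages, a cell type that embryo fibroblast cultures can hold. All 16 macrophage and leukocyte markers were measured and 14 were below 0 (87.5%, against 63.1% of measured genes and 85.7% of the fibroblast defining genes). Their median was -0.32, against -0.09 for the fibroblast defining genes. Their summed level was 828 FPKM in knockout and 1319 FPKM in wild-type fibroblasts. The sum was carried by Lyz2, a lysozyme gene whose row is shared with Lyz1, at 572 FPKM in knockout and 979 FPKM in wild-type fibroblasts. Without that row, left out after its values were seen, the sum was 256 FPKM in knockout and 340 FPKM in wild-type fibroblasts, 13 of 15 were below 0 and the median was -0.30. Their part in the Zeb2 value was not tested, and in bulk RNA fewer cells of a type and less RNA per cell cannot be told apart. The p-values in the authors' deposited table were 0.368985 for Zeb1 and 0.308814 for Zeb2.

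The PRRX genes also lay on opposite sides of 0 on the deposited scale. Prrx2 had the highest log2 ratio of the measured members, 0.24, at 12.5 FPKM in knockout and 10.5 FPKM in wild-type fibroblasts (296 and 403 estimated fragments, counting SE 0.11). Prrx1 was at -0.08, near the median gene, and on a common FPKM sum at 0.39. Prrx2 was above the median gene on either scale, at 0.68 on the common sum. The p-values in the authors' deposited table were 0.712508 for Prrx1 and 0.328761 for Prrx2.

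**Figure D3:**
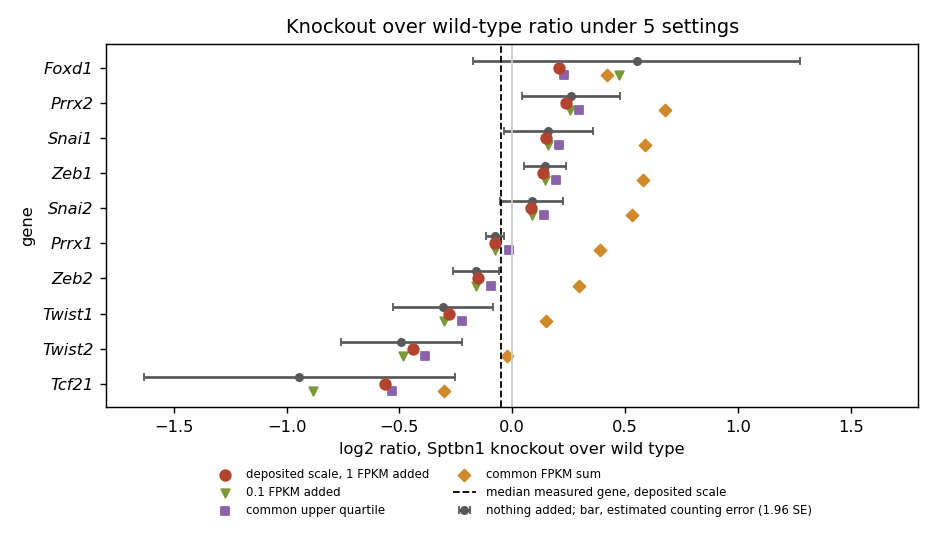
Log2 ratio of knockout over wild type for each member on the deposited scale with 1 FPKM added (red), with nothing added (dark grey, bars of 1.96 estimated counting SE), with 0.1 FPKM added, and after scaling to a common upper quartile or a common FPKM sum, with a dashed line at the median measured gene of the deposited scale. Tcf21 and Twist2 lie below 0 in each setting, Twist1, Zeb2 and Prrx1 cross 0 on a common sum, and the other 5 lie above 0 throughout.

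The ratio of 1 paralogue to the other within a library does not depend on how the libraries are scaled. The Prrx1 to Prrx2 ratio was 7.51 in knockout and 9.47 in wild-type fibroblasts, a log2 change of -0.33 (counting SE 0.11). The Zeb1 to Zeb2 ratio was 0.868 in knockout and 0.702 in wild-type fibroblasts, a log2 change of 0.31 (counting SE 0.07). In these 2 pairs the balance thus shifted by more than 2 counting SE, which cover counting error only. The p-values and folds that the authors deposited imply larger standard errors for the log2 ratio of each gene. These were 0.206 for Prrx1, 0.265 for Prrx2, 0.162 for Zeb1 and 0.157 for Zeb2. The changes of both pairs were smaller than 2 times the implied standard error of either gene alone. The Twist1 to Twist2 ratio was 1.25 in knockout and 1.10 in wild-type fibroblasts, a log2 change of 0.18 (counting SE 0.18). The Snai2 to Snai1 ratio was 1.57 in knockout and 1.65 in wild-type fibroblasts, a log2 change of -0.07 (counting SE 0.12). These 4 pairs have 1 library on each side, so their spread between cultures is not known.

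The E proteins, which dimerise with TWIST and TCF21, and the ID proteins, which sequester E proteins, lay near the median gene apart from Id4. Of the 7 genes, all measured, 6 were below 0 (85.7%, against 63.1% of measured genes) and the median was -0.06. The E protein genes Tcf3 (0.01), Tcf4 (-0.07) and Tcf12 (-0.09) and the ID genes Id2 (-0.06) and Id3 (-0.01) lay close to the median gene. Id4 was at 2.42 FPKM in knockout and 3.36 FPKM in wild-type fibroblasts, a log2 ratio of -0.35.

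Genes for the corepressors that SNAI and ZEB proteins recruit were likewise close to the median gene. Of 15 listed, 14 were matched and measured, with 4 above and 10 below 0 (71.4% below, against 63.1% of measured genes). The median was -0.07, and 1 was lower by 1.2-fold or more (7.14%, against 10.6% of measured genes). That gene was Eed, a Polycomb repressive complex subunit, at 8.78 FPKM in knockout and 11.3 FPKM in wild-type fibroblasts (-0.34), whereas Ezh2, the methyltransferase of the same complex, was at 0.18. The deacetylase genes Hdac1 (-0.17) and Hdac2 (-0.06), the scaffold gene Sin3a (-0.15) and the remodeller gene Chd4 (0.05) were the others named by the rule. Among 8 measured regulators of SNAI protein stability the median was 0.01. Lats2, a Hippo pathway kinase gene, was at 16.3 FPKM in knockout and 20.9 FPKM in wild-type fibroblasts (-0.34), Fbxl14, a ubiquitin ligase adaptor gene, was at 0.19, and Gsk3b and Btrc were each at -0.07.

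Epithelial genes that these factors are known to repress were at low levels in both libraries. Of 20 listed, 1 was measured, the keratin gene Krt18, at 1.33 FPKM in knockout and 1.32 FPKM in wild-type fibroblasts. The summed level of the 20 was 2.99 FPKM in knockout and 3.71 FPKM in wild-type fibroblasts. Cldn6, Esrp1 and Ovol2 were listed at 0 in both libraries, 4 others at 0 in knockout fibroblasts alone and 2 others at 0 in wild-type fibroblasts alone. Cdh1, named for its role and outside the rule for named genes (its values had been seen), stood at 0.173 FPKM in knockout and 0.240 FPKM in wild-type fibroblasts. The log2 ratio was -0.08 with 1 FPKM added and -0.48 with nothing added. Both levels were under the limit of 1 FPKM for a measured gene, so the ratio of Cdh1 is poorly determined. The p-value of Cdh1 in the authors' deposited table was 0.005927, and it was not set beside those of genes of like level.

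Mesenchymal effector genes, by contrast, were abundant, with 20 of 20 measured and a summed level of 7093 FPKM in knockout and 7498 FPKM in wild-type fibroblasts. Their median log2 ratio was -0.05, equal to that of all measured genes to 2 decimals, with 6 above and 14 below 0 (70.0%, against 63.1% of measured genes). None was higher by 1.2-fold or more and 3 of 20 were lower, 15% against 10.6% of measured genes, a share near the background. The 3 were the gelatinase gene Mmp2 (-0.38), S100a4, a calcium-binding protein gene also called fibroblast-specific protein (-0.30), and the tenascin gene Tnc (-0.27), with the thrombospondin gene Thbs1 next (-0.26). The most abundant, Sparc, a collagen-binding matricellular protein gene, was at 1706 FPKM in knockout and 1720 FPKM in wild-type fibroblasts (-0.01).

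The 62 other transcription factor genes of mesenchymal lineages had 37 measured members, 21 above and 16 below 0, with a median of 0.06. By 1.2-fold or more 7 were higher, 18.9% against 5.54% of measured genes, and 2 were lower, 5.41% against 10.6%. Barx1, a homeobox gene of stomach and jaw mesenchyme, was at 2.25 FPKM in knockout and 1.197 FPKM in wild-type fibroblasts (0.56), and Eya1 (0.39) and Tshz2 (0.34) were also higher. The 2 lower genes were Tbx4 and Heyl. Tbx4, a T-box gene of hindlimb and lung mesenchyme, was at 0.639 FPKM in knockout and 1.41 FPKM in wild-type fibroblasts (-0.56). Heyl was at 0.957 FPKM in knockout and 1.43 FPKM in wild-type fibroblasts (-0.31). Both count as measured only through the wild-type library, where they are higher, so the share of lower genes leans on that filter. Tcf21, which was above 1 FPKM in both libraries, had a ratio like that of Tbx4, and both were under 3 FPKM in each library.

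**Figure D4:**
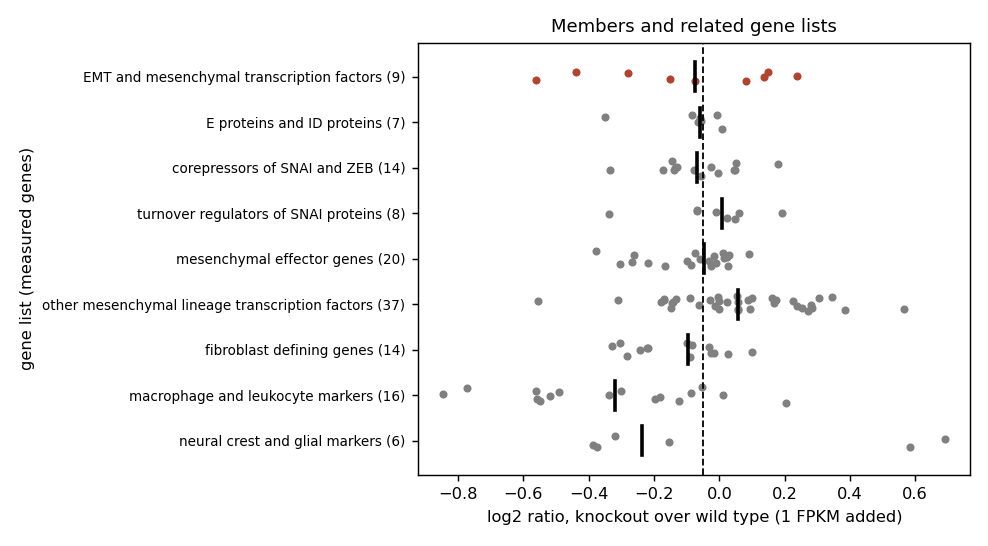
Log2 ratio of knockout over wild type (1 FPKM added) of the measured genes of each list with at least 6 of them (points, number of genes in brackets), with list medians as black bars and the median of all measured genes as a dashed line. The members (red) spread from -0.56 to 0.24, while the macrophage and leukocyte markers have the lowest median of the 9 lists drawn, -0.32.

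Most markers of endothelium, skeletal muscle, cartilage and bone were below 1 FPKM, whereas several neural crest and glial markers were not. Of 10 endothelial markers 1 was measured, Flt1, at 9.01 FPKM in knockout and 10.1 FPKM in wild-type fibroblasts (-0.14), and Tie1 and Cldn5 were listed at 0 in both libraries. Of 10 skeletal muscle markers 1 was measured, Des, at 9.80 FPKM in knockout and 12.7 FPKM in wild-type fibroblasts (-0.34), with Myod1, Myf5, Myog and Ckm listed at 0 in both. Neural crest and glial markers, whose lineage also uses Twist1, Snai2 and Zeb2, had 6 of 10 measured, a median of -0.24 and a summed level of 44.9 FPKM in knockout and 36.3 FPKM in wild-type fibroblasts. Sox10 was at 2.09 FPKM in knockout and 3.01 FPKM in wild-type fibroblasts (-0.38), while Fabp7, a fatty acid binding protein gene of glia, was at 27.2 FPKM in knockout and 16.5 FPKM in wild-type fibroblasts (0.69). Fabp7 was thus as abundant as the members next to Prrx1, and Gfap stood at a log2 ratio of 0.58. Of 9 matched chondrocyte and bone markers 2 were measured, the cartilage collagen gene Col2a1 and Sox9. Col2a1 was at 2.76 FPKM in knockout and 0.265 FPKM in wild-type fibroblasts (1.57), so it counts as measured only through the knockout library. Sox9 was at 5.39 FPKM in knockout and 4.26 FPKM in wild-type fibroblasts (0.28). The part of these cell types in the members' values was not tested.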

How the data were processed

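RNA from mouse embryonic fibroblasts was sequenced in 1 library per genotype. Per the series' design text, reads from an Illumina HiSeq 2000 were checked with FastQC and Trimmomatic and aligned with TopHat2 2.0.10 to NCBI mouse build 37.2, and Cufflinks made the FPKM that the authors deposited. The p-values are those the authors deposited, from Cuffdiff2 per the same text. With 1 library per genotype they could not measure the spread between cultures of the same genotype. The standard errors they imply can exceed counting error, as for Prrx1, at 0.206 against a counting SE of 0.021. Cufflinks divides fragments shared by similar genes, and a listed 0 can be a failed estimate.

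From the 25587 rows the row with the highest mean was kept per name. Of 206 listed genes 204 were matched, 4 by older names and 1 in a joined name, through RefSeq names (GRCm38.p6). Log2 ratios used 1 FPKM added to each library. The value of 1 fragment was read from FPKM below 0.3 times the length of genes with 1 GENCODE vM21 transcript over 1000 bases. Members' fragments used the shortest RefSeq-matched coding transcript, capped at the RefSeq gene span. Ratio and scaling code was tested on simulated data.

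The members and lists were chosen with earlier results of these data known. Named were the members, Sptbn1, and from each list the 4 measured genes with the largest differences, the 2 most abundant and markers listed at 0; other names were chosen after their values were seen. Alternatives were 2 other pseudocounts, 4 scalings, summed rows and 2 other minimum levels. Python 3.11.15, pandas 2.3.3, numpy 2.4.6 and scipy 1.17.1 were used.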

Additional observations from a re-analysis of the deposited data

How the results depend on the processing

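No paired analysis was possible because each genotype has 1 library, so leaving a library out was not possible either. A member's log2 ratio was taken as moved when it shifted by more than 1.96 times its counting SE, a list median when it shifted by more than 0.1, and a count when it changed by more than 1.5 times. Scaling to a common sum without small RNA names and rows over 5% of a library, summing the rows of a name and dropping the minimum level moved no member, list median or count at 1.2-fold or 1.5-fold. Adding 0.1 FPKM or nothing moved the count lower by 1.5-fold to 1 (Tcf21) and no other of these values. The 4 paralogue ratios were taken with nothing added, and adding 0.1 FPKM or 1 FPKM moved none of them. Setting the median measured gene to 0 put Prrx1 at -0.024, a common upper quartile put it at -0.014, and under both 1 member, Prrx2, was higher and 2 members, Twist2 and Tcf21, were lower by 1.2-fold or more. A common FPKM sum moved Twist1 to 0.15, Twist2 to -0.022, Snai1 to 0.59, Snai2 to 0.53, Zeb1 to 0.58, Zeb2 to 0.29, Prrx1 to 0.39 and Prrx2 to 0.68. There the member median was 0.39, 7 members were above and 2 below 0, 6 were higher and 1 was lower by 1.2-fold or more, 2 were higher by 1.5-fold or more, and 94.6% of measured genes were above 0, since all genes shift together. Relative to the median gene, a minimum mean of 5 FPKM put the macrophage and leukocyte median at -0.44, from -0.27. It put the neural crest and glial median at 0.24, from -0.19, but that median then rested on Fabp7 (0.69) and Ngfr (-0.32) alone. Leaving out Lyz2, an alternative chosen after seeing the data, put the macrophage and leukocyte median at -0.25 from the median gene. Depth limits Tcf21 and Foxd1 most, at an estimated 22 to 70 fragments per library.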

Other observations

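The p-value and fold of each member in the authors' deposited table imply a standard error on the log2 scale, which can be set beside that of the 500 genes nearest in level. For 8 of the 9 measured members it lay at between 0.805 and 1.25 times the median of those genes. For Snai1 it was 0.0808, against a median of 0.210 at the same level, or 0.385 times it. With the median standard error of its level the log2 ratio of Snai1 with nothing added, 0.16, is smaller than 1 standard error.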
